A study of Rattus norvegicus with 28 samples.

Results

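Prefrontal cortex RNA of rats given psilocybin alone at 3 mg/kg was set against that of rats given ketanserin alone at 3 mg/kg, with tissue taken 24 h after the injections. The libraries were chosen by their treatment labels, with 4 libraries per drug, so 8 of the 28 libraries of the series entered the comparison. Rats of the psilocybin group had a Tween-80 vehicle injection and then psilocybin in saline. Rats of the ketanserin group had ketanserin in Tween-80 and then a saline vehicle injection. A vehicle group of 4 libraries, which had both vehicle injections, is given beside them, and psilocybin alone and ketanserin alone at 1 mg/kg, 4 libraries each, served as a second dose. All animals were adult male Sprague-Dawley rats, an outbred stock, aged 8 weeks on arrival, and all had 2 intraperitoneal injections. The sources used here do not give the time between the injections, and the labels describe the libraries of a group as biological replicates.

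Psilocybin is a prodrug whose product, psilocin, activates several serotonin receptors. Its acute effects on perception depend largely on the serotonin 2A receptor, which is dense on pyramidal neurons of the frontal cortex and couples through Gq proteins to phospholipase C, calcium release, protein kinase C and the ERK kinases. Ketanserin blocks that receptor, and also binds alpha-1 adrenergic and histamine H1 receptors and the vesicular monoamine transporter. Activity through such pathways switches on immediate early genes within minutes, and a group of phosphatases and adaptor proteins, the Dusp, Sprouty and Spred families, is transcribed downstream of ERK and damps it.

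The 8 libraries held 13903996 to 17456564 counts each. Psilocybin and ketanserin libraries did not separate on the leading principal components, and pairs of libraries from different drugs were about as alike (Pearson's r of log2 CPM across genes 0.923 to 0.977) as pairs within a drug (0.941 to 0.980). One library of each drug stood apart within the 8. Psilocybin library 1 lay at -71.98 on the first component, against -9.99 to 11.3 for the other 3 psilocybin libraries and -16.8 to 38.3 for the 4 ketanserin libraries, and mitochondrial transcripts took 11.1% of its counts, against 7.84 to 9.49% in the other 7. Its short genes read high, with a Spearman's rho of -0.323 across genes between its deviation from the gene mean and gene length, whereas ketanserin library 3 read high for long genes, at 0.283. Similar values of rho and of the mitochondrial share occurred elsewhere in the series. Over the other 20 libraries rho ran from -0.304 to 0.281, and a psilocybin library at 1 mg/kg had 11.6% mitochondrial counts. Counts over gene lists are also given for the 6 libraries left when psilocybin library 1 and ketanserin library 3 are dropped. Both were picked from these data as opposite extremes. Dropping them draws the drugs together for any list in which they hold opposite ends, so a smaller median there is no independent check. Fezf2, a marker of deep cortical layers, averaged 80.6 ± 7.72 CPM with psilocybin and 80.0 ± 7.403 CPM with ketanserin (SD, n = 4 each). The 13 deep layer markers tested varied, with log2 fold changes of psilocybin over ketanserin from -0.68 to 0.33, 5 above 0 and 8 below. Fezf2 alone therefore does not show that layers were sampled alike. In bulk tissue, fewer cells of a type and less RNA per cell cannot be told apart.

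By edgeR, no transcript differed between psilocybin and ketanserin beyond the spread between libraries once the number of tests was allowed for. Of 17404 genes tested, edgeR called 0 (0%) at an adjusted p under 0.05, and the lowest adjusted p was 0.637, for Syt12. At an unadjusted p under 0.05 there were 641 genes (3.68%), of which 372 (2.14%) read higher with psilocybin and 269 (1.55%) lower. That share is smaller than the threshold itself would give if no gene differed. DESeq2 called 2 genes, Syt12 and Faah, and limma voom with quality weights called Syt12 and a small nucleolar RNA annotated SNORA44. For genes averaging at least 1 CPM the 95% interval of the log2 fold change reached a median of 0.44 to either side. Smaller differences were not detectable for a typical gene. The interval is not adjusted for the number of tests, so somewhat larger differences could also go uncalled. All genes below are accordingly described by their values, and "higher" and "lower" give the direction of an estimate, not a call.

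**Figure D1:**
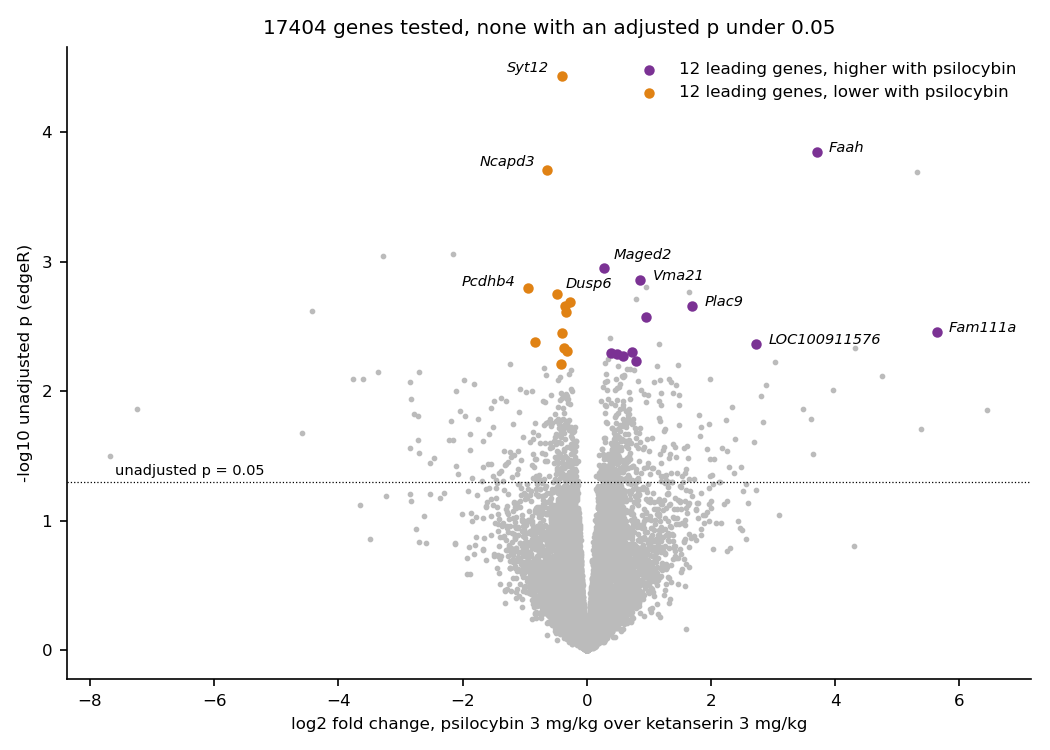
Each point is 1 of 17404 genes, with the log2 fold change of psilocybin over ketanserin, both at 3 mg/kg, on the horizontal axis and -log10 of the unadjusted edgeR p on the vertical axis. The 12 leading genes in each direction are coloured; Syt12 is the uppermost point, and its adjusted p was 0.637.

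None of the 9 serotonin receptor transcripts tested differed past the spread between libraries. The intervals leave room for moderate changes in Htr2a and Htr2c and for larger ones in Htr1a. Htr2a, the serotonin 2A receptor, read 37.9, 31.8, 34.9 and 32.4 CPM with psilocybin, against 45.2, 25.7, 35.2 and 30.8 CPM with ketanserin and 30.6 to 38.7 CPM with vehicle. The ketanserin libraries enclosed all 4 psilocybin libraries, and the log2 fold change was 0.00 with a 95% interval of -0.33 to 0.34. Htr2c, the related serotonin 2C receptor, read 12.1 to 23.1 CPM with psilocybin and 16.5 to 25.0 CPM with ketanserin, a log2 difference of -0.09 (95% interval -0.60 to 0.43). Htr1a had the lowest log2 fold change of the list, at -0.54 (95% interval -1.55 to 0.48). It read 1.28 to 8.64 CPM with psilocybin and 5.17 to 8.19 CPM with ketanserin. Per length, Htr2a was the most abundant of the 9 serotonin receptor transcripts tested, at a mean of 7.33 FPKM over the 8 libraries, followed by the ion channel subunit Htr3a at 5.76 FPKM, Htr6 at 4.67 FPKM, Htr2c at 4.51 FPKM and Htr1a at 4.31 FPKM. The SD of Htr2a within a drug was 0.594 FPKM with psilocybin and 1.78 FPKM with ketanserin, and that of Htr2c 1.15 and 0.852 FPKM, which is wider than the steps between Htr6, Htr2c and Htr1a. Of the 9, 2 had a log2 fold change above 0 and 7 below, with a median of -0.15, against 50% above 0 and a median of -0.00 over all genes tested, and none had an unadjusted p under 0.05. The count was the same in the 6 libraries, and the median -0.10.

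Genes for other binding sites of ketanserin likewise gave no difference past the spread between libraries, with Adra1a the lowest at a log2 fold change of -0.52. The alpha-1 adrenergic receptor genes Adra1b and Adra1d had log2 fold changes of -0.05 and -0.00, the histamine receptor Hrh1 -0.08 and the vesicular transporter Slc18a2 0.02, and none of the 9 targets tested had an unadjusted p under 0.05; 2 were above 0, with a median of -0.05, and with the 6 libraries 4 were, with a median of -0.11. Among 23 genes of Gq signalling, 8 were above 0 and 15 below, with a median of -0.10, and with the 6 libraries 9 and 14, with a median of -0.08. The lowest p among them was that of Ppp3ca, the catalytic subunit of the calcium-dependent phosphatase calcineurin, at 204, 213, 201 and 214 CPM with psilocybin, against 225, 295, 415 and 247 CPM with ketanserin (log2 fold change -0.51, SE 0.241, unadjusted p 0.0471). The groups did not overlap, but the ketanserin values spread widely and the highest came from library 3, without which the log2 fold change was -0.30.

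Syt12, a synaptotagmin of synaptic vesicles, had the smallest p of all genes and read lower with psilocybin. It read 65.8, 65.6, 64.6 and 64.4 CPM with psilocybin, against 80.9, 83.4, 93.3 and 85.8 CPM with ketanserin and 74.9 to 89.0 CPM with vehicle. The psilocybin libraries were nearly identical and all lay under every ketanserin and vehicle library; the log2 difference came to -0.40 (SE 0.0799, 95% interval -0.56 to -0.23, unadjusted p 3.66e-05). It was the psilocybin group that stood off from vehicle, at a log2 difference of -0.33 to vehicle, whereas ketanserin lay at 0.07. These comparisons share the vehicle libraries. At 1 mg/kg the difference between the drugs was -0.02 (unadjusted p 0.774), and the test of the change between doses gave an unadjusted p of 0.00266 and an adjusted p of 1.00. The gene lies on chromosome 1 at 219688451 to 219719272 of rn6, on the minus strand.

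Non-overlap between the groups means every library of one drug above every library of the other. It was seen for 237 genes in the lower direction (1.36%), from which the 12 with the smallest p and a mean of at least 1 CPM were taken. Random ordering of 4 libraries against 4 would give a share of about that size in each direction, so non-overlap by itself sets no gene apart. Ncapd3, a subunit of the condensin II complex, read 8.88 to 12.1 CPM with psilocybin and 15.2 to 18.5 CPM with ketanserin (log2 fold change -0.63, SE 0.145, unadjusted p 0.000197). Fscn1, which bundles actin, read 125 to 144 CPM with psilocybin and 149 to 200 CPM with ketanserin. Sept6, a filament-forming septin, read 40.8 to 54.2 and 55.1 to 73.7 CPM, and Far1, an enzyme of ether lipid synthesis, 23.6 to 26.5 and 31.6 to 36.4 CPM. The others were Pcdhb4, Dusp6, Dnajb6, a co-chaperone, Tmem18, Fam206a, Pamr1 and Mgat2, an enzyme that extends N-glycans, at log2 fold changes of -0.94 to -0.27.

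**Figure D2:**
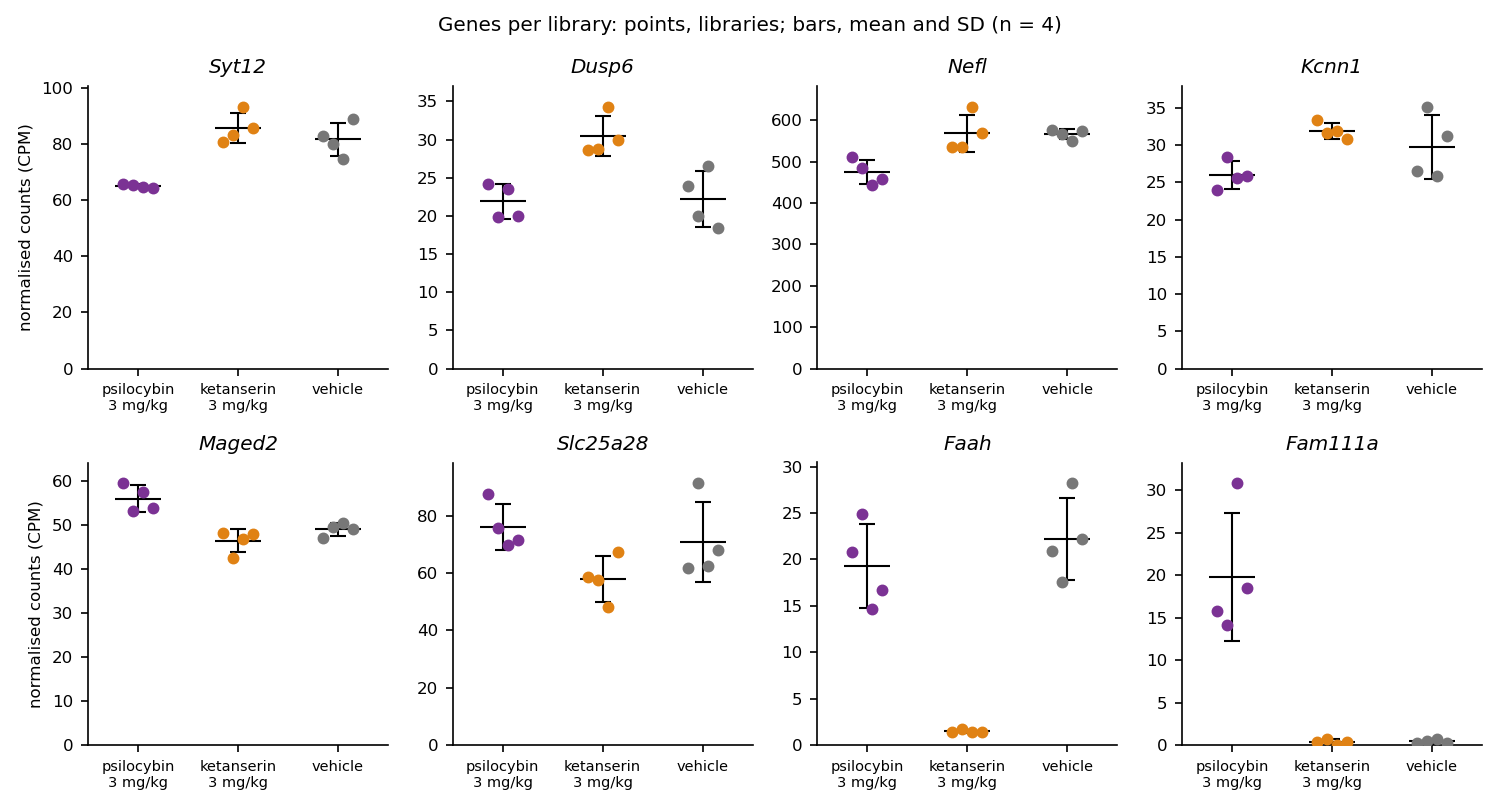
Normalised counts (CPM, vertical axes starting at 0) of 8 genes in each library, with psilocybin at 3 mg/kg, ketanserin at 3 mg/kg and vehicle from left to right; points are libraries, and bars give the mean and SD of 4. Syt12, Dusp6, Nefl and Kcnn1 lie lower and Maged2, Slc25a28, Faah and Fam111a higher in every psilocybin library than in every ketanserin library, and the distance is by far greatest for Faah and Fam111a.

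Genes that restrain ERK signalling read lower with psilocybin throughout their list. Dusp6, a phosphatase that removes the activating phosphates from ERK, read 24.2, 19.8, 23.5 and 20.005 CPM with psilocybin, against 28.6, 28.8, 34.3 and 30.0 CPM with ketanserin and 18.5 to 26.5 CPM with vehicle. Every library of ketanserin at 3 mg/kg lay above every psilocybin and vehicle library. Dusp6 thus differed by -0.48 on the log2 scale (SE 0.136, 95% interval -0.75 to -0.20, unadjusted p 0.00178, adjusted p 0.930). Here ketanserin was the group apart from vehicle, at a log2 difference of 0.45, and psilocybin lay at -0.02.

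All 12 genes of the ERK feedback list had a log2 fold change below 0, with a median of -0.19. Dusp6 was the only one with an unadjusted p under 0.05 or with groups that did not overlap. Spred2, an adaptor that blocks activation of Raf, read 9.73, 20.4, 22.9 and 24.9 CPM with psilocybin, against 20.7, 40.6, 36.8 and 26.9 CPM with ketanserin (log2 fold change -0.68, SE 0.381, unadjusted p 0.0876). Its relative Spred3 read 14.0 to 26.9 CPM with psilocybin and 21.4 to 30.3 CPM with ketanserin (log2 fold change -0.35, SE 0.181). Sprouty gene Spry1 read 4.28 ± 1.16 CPM with psilocybin and 5.96 ± 1.87 CPM with ketanserin, and Spry2 62.5 ± 3.41 and 62.5 ± 6.62 CPM (SD, n = 4 each), which leaves Spry2 with no measured difference. The list score, the median over the genes of their log2 deviation from the mean of the 8 libraries, was -0.04, -0.11, 0.00 and -0.16 in the psilocybin libraries, against -0.07, 0.26, 0.35 and 0.08 in the ketanserin libraries. Of the ketanserin libraries, 3 lay above all psilocybin libraries and library 1 lay among them. With the 6 libraries, 11 of 12 were below 0 and the median was -0.15.

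The region before the start of these genes is shown for 3 of them, because the members share a direction while Dusp1, the other major phosphatase of the list, had a log2 fold change of only -0.02. The sequences are the 250 bases before the start in the RefSeq table on GRCr8, in the direction of the gene, at chr7:35979354-35979603 on the plus strand for Dusp6, chr14:98350327-98350576 on the plus strand for Spred2 and chr10:17184603-17184852 on the plus strand for Dusp1. Capitals mark TGACG on either strand, the core of the cyclic AMP response element.
Dusp6: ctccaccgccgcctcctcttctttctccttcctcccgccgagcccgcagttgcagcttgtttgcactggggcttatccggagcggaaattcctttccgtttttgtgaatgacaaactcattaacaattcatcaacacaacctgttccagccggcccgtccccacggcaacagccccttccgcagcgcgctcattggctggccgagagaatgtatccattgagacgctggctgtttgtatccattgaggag
Spred2: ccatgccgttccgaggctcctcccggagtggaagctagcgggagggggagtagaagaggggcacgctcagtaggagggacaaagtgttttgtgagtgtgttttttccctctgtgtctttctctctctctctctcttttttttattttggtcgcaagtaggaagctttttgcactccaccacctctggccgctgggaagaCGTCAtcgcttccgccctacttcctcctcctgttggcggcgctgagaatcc
Dusp1: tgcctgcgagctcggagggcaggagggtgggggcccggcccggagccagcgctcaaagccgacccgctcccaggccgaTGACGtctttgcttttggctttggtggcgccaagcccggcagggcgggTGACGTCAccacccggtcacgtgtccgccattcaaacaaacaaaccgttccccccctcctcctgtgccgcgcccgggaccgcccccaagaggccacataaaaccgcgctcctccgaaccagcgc
Dusp1 held the complete palindrome TGACGTCA and Spred2 held 1 core, whereas Dusp6 held none in this window. The table held 11 of the 12 genes (not Dusp4), with 12 starts because Spry2 has 2. The core was found before 5 of the 12 starts, against 18.2% of 33469 starts of all genes in the table, and the palindrome before 1, against 1.59%. Of the 20 starts of immediate early genes in the table, 13 had the core and 5 the palindrome. The core lies within the palindrome, so the counts overlap. CCGGAAG, a form of the site for ETS factors, was found before none of the 12 starts and before 7.27% of all. A match is only a match of letters.

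Immediate early genes showed no such shared direction. Of 29 tested, 11 were above 0 and 18 below, with a median of -0.05, and Dusp6, which this list shares, was the only one with an unadjusted p under 0.05. In the 6 libraries the count was again 11 and 18, with a median of -0.09. Fos read 10.4, 5.30, 14.2 and 5.99 CPM with psilocybin, against 6.91, 14.3, 10.6 and 6.49 CPM with ketanserin (log2 fold change -0.10, SE 0.428). Arc, which regulates AMPA receptor trafficking, read 52.1 to 123 and 48.4 to 156 CPM. For both genes the libraries of the drugs were interleaved. Egr1 was at 136 ± 16.2 CPM with psilocybin and 161 ± 36.5 CPM with ketanserin, Fosb at 9.28 ± 1.13 and 9.87 ± 4.77 CPM, Nr4a1 at 81.0 ± 11.5 and 85.5 ± 21.1 CPM, and Junb, in the other direction, at 92.0 ± 23.6 and 71.2 ± 22.3 CPM (SD, n = 4 each). Against vehicle, the median of the list was 0.19 for psilocybin and 0.21 for ketanserin, with the vehicle libraries shared. The directions of Fos, Fosb, Arc and Nr4a1 turn when ketanserin library 2, which was high for this list, is left out, with log2 fold changes of 0.16, 0.28, 0.10 and 0.06.

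Neurofilament genes and genes of fast-firing neurons read lower with psilocybin. Of 13 tested, 11 were below 0 and 2 above, with a median of -0.26, and 4 had an unadjusted p under 0.05 in that direction, against 1.55% of all genes. Nefl, the light neurofilament subunit, read 511, 485, 444 and 458 CPM with psilocybin, against 535, 536, 632 and 568 CPM with ketanserin and 550 to 576 CPM with vehicle. All libraries of psilocybin at 3 mg/kg lay under all libraries of ketanserin at 3 mg/kg and of vehicle. The log2 fold change was -0.26 (SE 0.0924, edgeR, unadjusted p 0.00967, adjusted p 0.930). Nefm, the medium subunit, read 159 to 219 CPM with psilocybin and 206 to 348 CPM with ketanserin, and alpha-internexin, Ina, 309 to 379 and 364 to 451 CPM. For both of these genes the ranges overlapped, at log2 fold changes of -0.44 and -0.21. Scn4b, the sodium channel subunit that supports rapid repeated firing, read 53.1, 55.6, 31.2 and 29.5 CPM with psilocybin, against 41.4, 56.4, 90.1 and 68.7 CPM with ketanserin (log2 fold change -0.60, SE 0.250). The exceptions were Pvalb and Prph, at 0.23 and 0.19, and the value of Pvalb rests on 146 CPM in psilocybin library 1, against 53.9 to 70.7 CPM in the other 3. With the 6 libraries the count was again 11 below of 13, the median -0.24, and 1 gene had an unadjusted p under 0.05.

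Ion channel and synaptic genes leaned the same way by smaller amounts. Potassium channel genes were below 0 for 27 of 31, against 50% of all genes, with a median of -0.18, and 2 had an unadjusted p under 0.05 in that direction, against 1.55% of all genes. Kcnn1, a calcium-activated channel of the after-hyperpolarisation, read 24.0, 28.4, 25.6 and 25.9 CPM with psilocybin, against 33.3, 31.6, 31.9 and 30.8 CPM with ketanserin (log2 fold change -0.30, SE 0.108, unadjusted p 0.0115). The groups did not overlap, and the vehicle libraries ran from 25.9 to 35.1 CPM, with 3 psilocybin libraries under all of them. Kcnk1, a leak channel, read 91.7 to 117 CPM with psilocybin and 117 to 119 CPM with ketanserin. GABA signalling genes were below 0 for 17 of 20 (median -0.18), glutamate receptor genes for 16 of 22 (median -0.14) and synaptic structure genes for 22 of 29 (median -0.13). Only Grin2d, an NMDA receptor subunit, had an unadjusted p under 0.05 among these 3 lists, in the other direction, at 35.0 ± 4.18 CPM with psilocybin and 29.0 ± 2.66 CPM with ketanserin (SD, n = 4 each; log2 fold change 0.27). With the 6 libraries the medians moved to -0.04 for potassium channels, -0.05 for GABA signalling, -0.02 for glutamate receptors and -0.01 for synaptic structure, and 16 of 31 potassium channel genes were below 0.

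**Figure D3:**
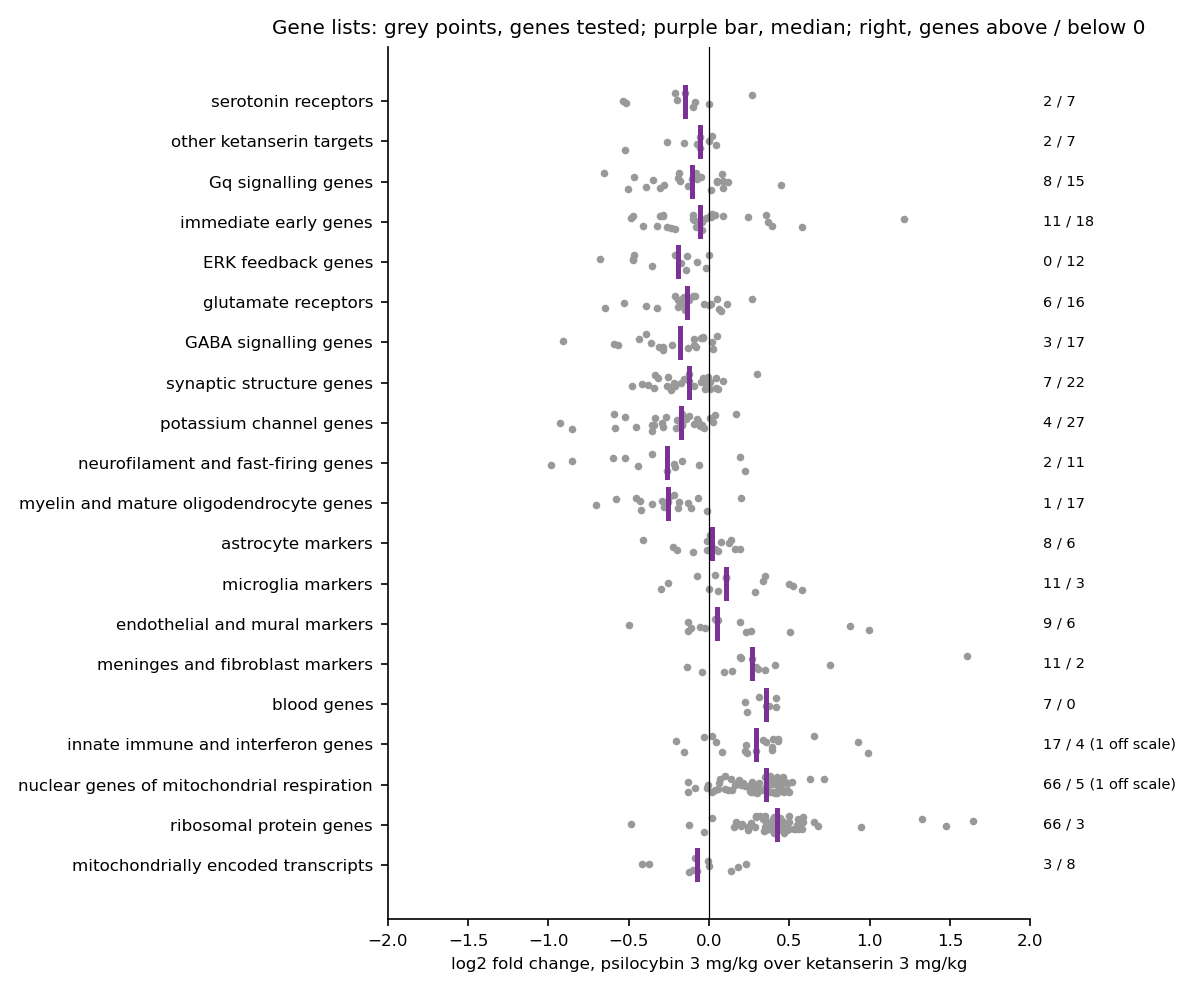
Log2 fold changes of psilocybin over ketanserin at 3 mg/kg (horizontal axis) for the tested genes of 20 lists (rows); grey points are genes, the purple bar is the list median, and the numbers at the right count genes above and below 0. ERK feedback genes all lie below 0. Neurofilament and myelin medians are the lowest, at -0.26 and -0.25, and ribosomal protein and respiration medians the highest, at 0.43 and 0.36. With psilocybin library 1 and ketanserin library 3 left out these 4 medians were -0.24, -0.18, 0.13 and 0.03. Those libraries hold opposite ends of the ribosomal and respiration scores, so leaving them out shrinks these medians by construction.

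In the higher direction, 291 genes did not overlap between the groups (1.67%), and the 2 with the greatest fold among the leading 12 were read at 2 levels across the whole series. Faah, the enzyme that degrades the endocannabinoid anandamide, read 20.8, 24.9, 14.6 and 16.7 CPM with psilocybin, against 1.37, 1.68, 1.38 and 1.45 CPM with ketanserin and 17.6 to 28.2 CPM with vehicle. All 4 ketanserin libraries were low (log2 fold change 3.70, SE 0.784, unadjusted p 0.000141). Low readings, under 5 CPM, were found in 4 of the other 20 libraries too, namely 2 given ketanserin at 1 mg/kg and 1 of each combination group, and no library of the series lay between 2.94 and 13.0 CPM. The symbol has a second record on the same chromosome, at 134331929 to 134348995 against 134852875 to 134871775 of rn6, which was itself low in 21 of 28 libraries. This second record read 0.204 to 6.25 CPM with psilocybin and 0.291 to 0.484 CPM with ketanserin at 3 mg/kg. It was thus low in all 4 ketanserin libraries as well. How reads were divided between the records was not tested.

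Fam111a, a protease that acts at DNA replication forks, read 15.8, 14.1, 30.8 and 18.5 CPM with psilocybin, against 0.391, 0.755, 0 and 0.378 CPM with ketanserin. Vehicle libraries were low as well, at 0.203 to 0.744 CPM, and 18 of the 28 libraries were under 5 CPM. The fitted log2 fold change of 5.63 (SE 1.72) therefore sets 4 high libraries against 4 low ones in a gene that also split the libraries of 4 of the other groups. The uncharacterised gene LOC100911576 was likewise uneven, at 3.27, 1.86, 14.7 and 18.9 CPM with psilocybin and 1.20 to 1.76 CPM with ketanserin.

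The other leading genes differed by less than Faah and Fam111a. Maged2, a MAGE family gene, read 59.5, 53.2, 57.5 and 53.9 CPM with psilocybin, against 48.3, 42.6, 46.8 and 48.0 CPM with ketanserin and 47.0 to 50.5 CPM with vehicle (log2 fold change 0.27, SE 0.0737, unadjusted p 0.00111). It was psilocybin that lay above both other groups. Slc25a28, the mitochondrial iron importer mitoferrin-2, read 69.8 to 87.5 CPM with psilocybin and 48.0 to 67.4 CPM with ketanserin (log2 fold change 0.39, SE 0.128). Vma21, an assembly factor of the vacuolar proton pump, read 5.02 to 6.39 and 2.07 to 3.97 CPM, and Slfn13, which cleaves transfer and ribosomal RNA, 2.77 to 3.61 and 1.05 to 2.21 CPM. Plac9, Dqx1, Zc3h8, Mad2l2, a DNA repair adaptor, and Fstl3, which binds activin, completed the 12, at log2 fold changes of 0.49 to 1.69.

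Genes of the innate immune and interferon response read somewhat higher with psilocybin. Of 21 tested, 17 were above 0 and 4 below, with a median of 0.29. Mx2, an interferon-induced GTPase, read 19.8, 17.7, 19.99 and 15.99 CPM with psilocybin, against 12.3, 13.7, 14.99 and 13.6 CPM with ketanserin, and the vehicle libraries spread over most of both ranges, at 12.8 to 19.5 CPM. The groups did not overlap (log2 fold change 0.43, SE 0.188, unadjusted p 0.0302). Mx1 read 0.764 to 1.92 CPM with psilocybin and 0.567 to 0.871 CPM with ketanserin, and Isg15, a ubiquitin-like interferon product, 3.37 ± 1.31 and 1.77 ± 0.391 CPM (SD, n = 4 each). Ifit1 went the other way at very low counts, with 3 of 4 psilocybin libraries and 2 of 4 ketanserin libraries at 0. Microglial markers summed to 426 to 579 CPM in the psilocybin libraries and 393 to 455 CPM in the ketanserin libraries, with 11 of 14 above 0 and a median of 0.10, and 7 of 14 and a median of 0.01 with the 6 libraries. Their part in the immune values was not tested. With the 6 libraries, 16 of 21 immune genes were above 0, the median was 0.18, and none in that direction had an unadjusted p under 0.05.

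Contractile genes of vessel walls were higher in 2 psilocybin libraries. Acta2, smooth muscle actin, read 64.6, 27.8, 19.99 and 59.3 CPM with psilocybin, against 21.3, 26.1, 22.2 and 16.6 CPM with ketanserin (log2 fold change 0.99, SE 0.356, unadjusted p 0.0107). Tagln, which binds actin in smooth muscle, read 75.1, 38.4, 32.6 and 65.0 CPM, against 26.4, 36.4, 31.3 and 20.7 CPM with ketanserin (log2 fold change 0.88), and Myh11, its myosin, had a log2 fold change of 0.50. In all 3 genes psilocybin libraries 1 and 4 were highest. Library 3 lay among the ketanserin libraries, and library 2 lay among them for Myh11 and just above them for Acta2 and Tagln. These 3 were the only ones of 15 endothelial and mural markers with an unadjusted p under 0.05, against 2.14% of all genes in that direction, and the median of the list was 0.05, with 9 above 0 and 6 below. The mural marker Rgs5 went the other way and was the lowest of the list, at a log2 fold change of -0.50, or -0.02 in the 6 libraries. Of the 15, 11 were above 0 in the 6 libraries, with a median of 0.08, and none had an unadjusted p under 0.05.

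Genes of blood and of the meninges also read higher with psilocybin. The 7 blood genes were all above 0, with a median of 0.35 and no unadjusted p under 0.05, and they summed to 1614 to 2914 CPM in the psilocybin libraries and 1651 to 1988 CPM in the ketanserin libraries. Meningeal and fibroblast markers were above 0 for 11 of 13 (median 0.27), summing to 278 to 458 and 305 to 419 CPM, and psilocybin library 4 was the lowest of the 8, with a score of -0.76. All 7 blood genes were above 0 in the 6 libraries too (median 0.47) and 12 of 13 meningeal markers were above 0 (median 0.28). At 1 mg/kg the 7 blood genes were all below 0, with a median of -0.21, and the 13 meningeal markers all above 0, with a median of 0.49. Their part in the other differences was not tested.

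Myelin genes were below 0 for 17 of 18, with a median of -0.25 and no unadjusted p under 0.05. Mbp, myelin basic protein, read 1990, 1390, 1182 and 3113 CPM with psilocybin, against 2350, 1893, 2665 and 2920 CPM with ketanserin and 1474 to 4790 CPM with vehicle. Psilocybin libraries 2 and 3 were the lowest and library 4 the highest of the 8. List scores ran alike, at -0.04, -0.43, -0.55 and 0.45 with psilocybin and 0.10, -0.10, 0.29 and 0.34 with ketanserin. Leaving out psilocybin library 3 brought the median to -0.14 and leaving out library 4 to -0.50; with the 6 libraries 15 of 18 were below 0, with a median of -0.18. At 1 mg/kg all 18 were above 0, with a median of 0.52.

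Genes for ribosomal proteins and nuclear genes for respiration in mitochondria read higher with psilocybin as groups, and moved with 1 library of each drug and with gene length. Of 69 ribosomal protein genes tested, 66 were above 0, with a median of 0.43; 21 had an unadjusted p under 0.05 in that direction, against 2.14% of all genes, and 8 did not overlap, against 1.67%. Rpl30 read 111, 69.3, 105 and 35.7 CPM with psilocybin, against 30.2, 23.9, 22.8 and 38.6 CPM with ketanserin, and Rpl17 181 ± 95.3 and 72.5 ± 18.3 CPM (SD, n = 4 each). More typical were Rpl19, at 282 ± 47.0 and 214 ± 26.2 CPM, and Rps20, at 123 ± 24.4 and 86.9 ± 11.1 CPM. The list score was 0.68, 0.06, -0.04 and 0.12 in the psilocybin libraries, against 0.02, -0.33, -0.52 and -0.01 in the ketanserin libraries. Psilocybin library 1 was highest and ketanserin library 3 lowest, the same libraries that held the ends of the length slope among the 8 libraries. Leaving both out lowers this median by construction. Of 71 respiration genes 66 were above 0, with a median of 0.36, and 4 had an unadjusted p under 0.05. With the 6 libraries, the ribosomal list had 64 of 69 above 0, a median of 0.13 and no unadjusted p under 0.05, and the respiration list 47 of 71 above 0 and a median of 0.03.

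The log2 fold change was related to gene length across the genes tested, but unevenly between libraries. Across the 17404 genes the log2 fold change had a Spearman's rho of -0.270 with length, a description across genes that are not independent. The median was 0.16 for the 944 genes of up to 500 bases, 0.23 for the 1835 genes of 500 to 1000 bases, 0.09 for the 5026 of 1000 to 2000 bases, and -0.14 for the 363 longer than 8000 bases. For genes of 500 to 1000 bases the median log2 deviation from the mean of the 8 libraries was 0.41, 0.02, 0.00 and 0.05 with psilocybin. It was 0.06, -0.18, -0.25 and 0.06 with ketanserin. Ketanserin libraries 1 and 4 sloped the same way as psilocybin library 1, with a rho of -0.152 each. The median length was 630 bases for the ribosomal list, 731 for respiration, 3104 for potassium channels, 3058 for the neurofilament list and 2382 for ERK feedback genes, against 2194 for all genes tested. When a smooth term in gene length was allowed for in each library, an alternative added after the data had been seen, the medians were 0.25 for ribosomal, 0.16 for respiration, -0.15 for potassium channel, -0.21 for neurofilament and -0.16 for ERK feedback genes.

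**Figure D4:**
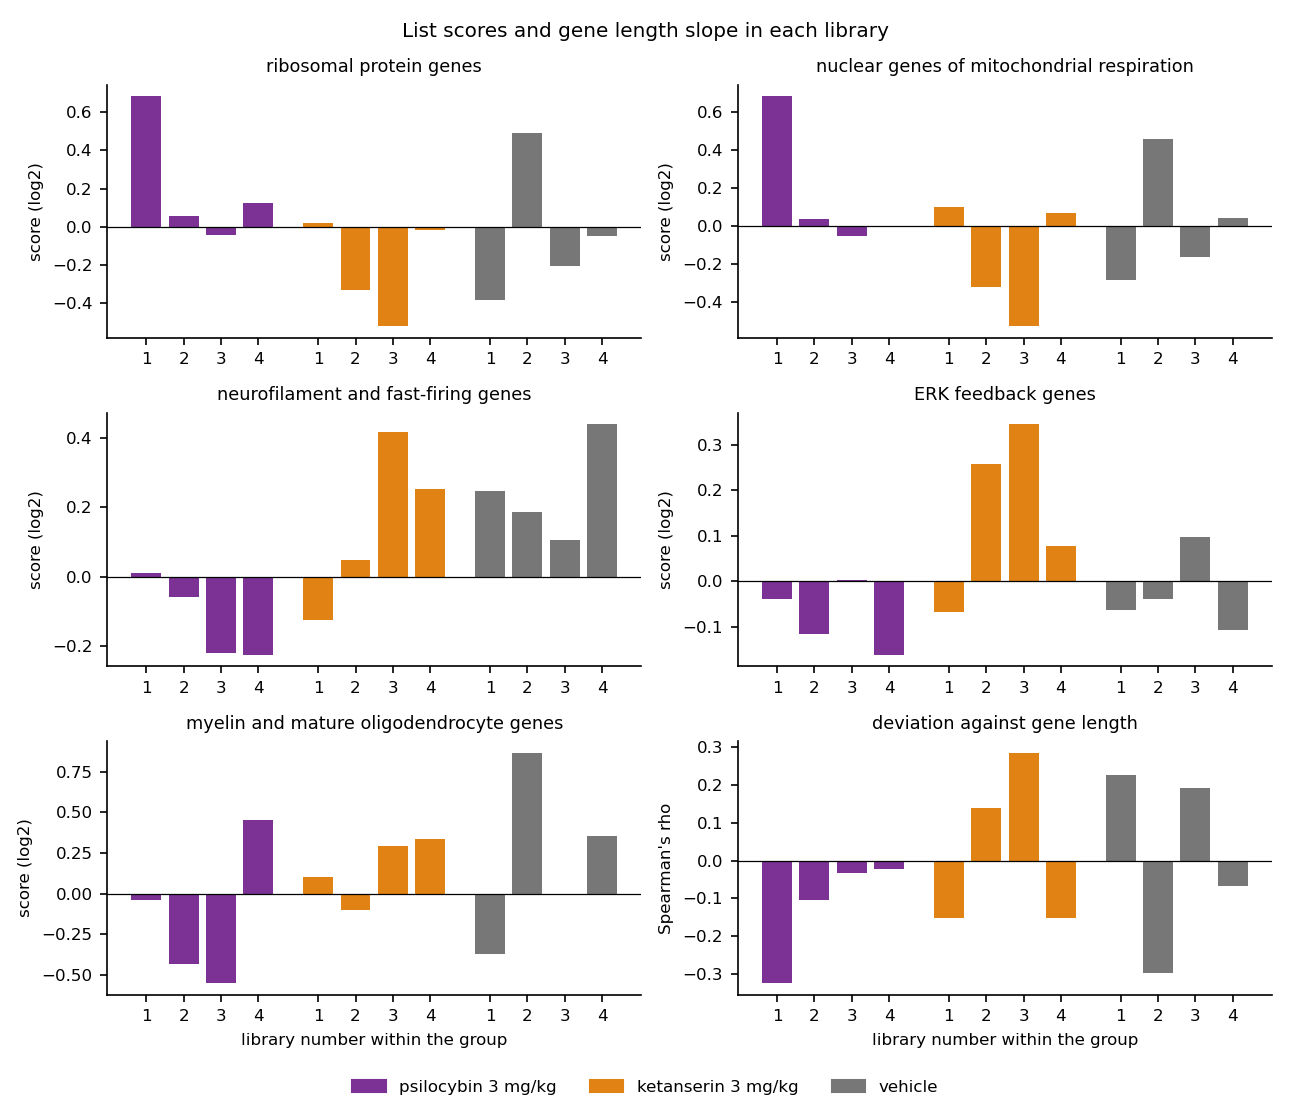
Bars give the score of 5 gene lists (median log2 deviation of the genes from their mean over the 8 drug libraries) and, in the sixth panel, Spearman's rho across genes between a library's deviation and gene length, for 4 libraries each of psilocybin at 3 mg/kg, ketanserin at 3 mg/kg and vehicle. Psilocybin library 1 and ketanserin library 3 hold the extremes of ribosomal and respiration scores (0.68 in psilocybin library 1 for both lists, and -0.52 and -0.53 in ketanserin library 3) and of the length slope among the 8 drug libraries.

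Transcripts of the mitochondrial genome did not share the direction of the nuclear respiration genes. Of 11 tested, 3 were above 0 and 8 below, with a median of -0.07. Mt-nd5, a subunit of complex I, read 2161, 2227, 2104 and 2373 CPM with psilocybin, against 2615, 3092, 3010 and 2756 CPM with ketanserin, and Mt-nd4l 580 to 710 and 805 to 952 CPM. For these 2 transcripts the drugs did not overlap (log2 fold changes -0.37 and -0.42, SE 0.160 and 0.151, edgeR, unadjusted p 0.0289 and 0.0103). Over all genes tested, 1.36% did not overlap in the lower direction and 1.55% had an unadjusted p under 0.05 there. Vehicle libraries overlapped both drugs, at 2254 to 2808 CPM for Mt-nd5 and 615 to 834 CPM for Mt-nd4l. With the 6 libraries all 11 were below 0, with a median of -0.26, and none had an unadjusted p under 0.05.

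At 1 mg/kg, in libraries that the 3 mg/kg comparison does not use, psilocybin against ketanserin gave 0 genes called by edgeR and 342 at an unadjusted p under 0.05 (1.97%); DESeq2 called 4. Of the 12 leading lower genes, 11 kept their sign at 1 mg/kg, and of the 12 leading higher genes 8 did, against 58% of all genes tested. Over all genes at an unadjusted p under 0.05 at 3 mg/kg, the share that kept its sign was 55.4% of the 269 lower and 65.3% of the 372 higher genes. Dusp6 read a log2 fold change of -0.34 (unadjusted p 0.0197) at the lower dose, Fam206a -0.60 (unadjusted p 0.0299) and LOC100911576 2.06 (unadjusted p 0.0206). The comparison across both doses, 8 libraries against 8, takes in the libraries of the 3 mg/kg comparison. It is therefore no independent check of genes that led there. In it Dusp6 stood at -0.41 (edgeR, unadjusted p 0.00027), and edgeR called no gene, with 580 (3.33%) at an unadjusted p under 0.05. For the ERK feedback list the 1 mg/kg median was -0.16, with 10 of 12 below 0. Several other lists kept their side as well, against a median of 0.01 over all genes tested. Ribosomal protein genes were above 0 for 64 of 69 and respiration genes for 68 of 71, both with a median of 0.11. Gq signalling genes were below 0 for 20 of 23 (median -0.13) and synaptic structure genes for 25 of 29 (median -0.12). The neurofilament, myelin and blood lists stood on the other side of 0. So did microglial markers (median -0.04, 4 of 14 above 0), interneuron markers (median -0.03) and genes of serotonin handling (median -0.07). The medians of deep layer markers (0.11), oligodendrocyte precursor markers (0.10), glucocorticoid response genes (0.01) and heat shock genes (0.07) also changed side.

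Some other differences did not recur at the lower dose. Pcdhb4, a clustered protocadherin of cell adhesion, read 1.92, 1.75, 1.11 and 1.16 CPM with psilocybin at 3 mg/kg, against 3.26, 2.96, 2.90 and 2.33 CPM with ketanserin at 3 mg/kg. At 1 mg/kg it read 3.995, 2.34, 2.96 and 3.62 CPM with psilocybin and 1.46, 1.65, 2.20 and 1.72 CPM with ketanserin. The drugs did not overlap at either dose and stood in opposite order, with log2 fold changes of -0.94 and 0.87, and the test of the change between doses gave an unadjusted p of 5.48e-05 (adjusted p 0.539). Nefl likewise had a log2 fold change of 0.27 at 1 mg/kg (unadjusted p 0.00748; change between doses, unadjusted p 0.000442), and 12 of the 13 neurofilament and fast-firing genes were above 0 there, with a median of 0.15. For the change between doses edgeR called 0 genes, with 370 (2.13%) at an unadjusted p under 0.05, and DESeq2 called 2.

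**Figure D5:**
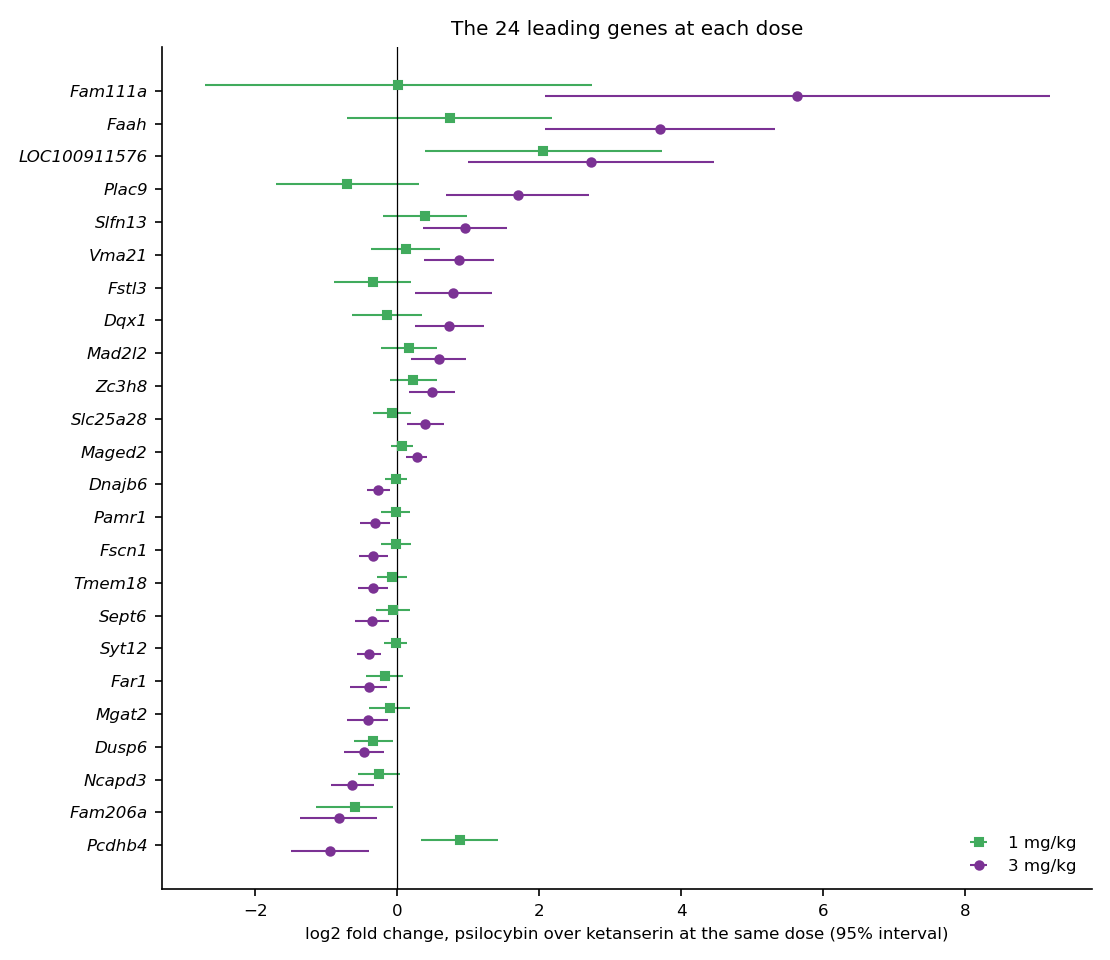
Log2 fold changes of psilocybin over ketanserin at the same dose for the 24 leading genes (rows), with 95% intervals; green squares are 1 mg/kg and purple circles 3 mg/kg, which chose the genes. Most intervals at 1 mg/kg include 0; Dusp6, Fam206a and LOC100911576 exclude it in the same direction and Pcdhb4 in the opposite direction.

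Set against vehicle, each drug at 3 mg/kg gave 0 genes called by edgeR, with 523 genes for psilocybin and 348 for ketanserin at an unadjusted p under 0.05, and DESeq2 called 0 and 1 (Faah). The psilocybin count rests on the vehicle libraries, with 1419 genes when vehicle library 2 is left out and 366 to 415 when another one is. The 2 comparisons share the 4 vehicle libraries and are given side by side only. Log2 differences to vehicle were -0.33 with psilocybin and 0.07 with ketanserin for Syt12, -0.02 and 0.45 for Dusp6, and -0.26 and 0.00 for Nefl. For the list medians they were -0.33 and -0.11 for neurofilament genes, -0.04 and 0.16 for ERK feedback genes, 0.24 and -0.20 for ribosomal protein genes, and -0.38 and -0.15 for myelin genes.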

How the data were processed

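RNA of the prefrontal cortex was sequenced in 28 libraries. The authors deposited raw counts per gene, per the file headers, and FPKM values, normalised by the authors to depth and gene length. The submitters' processing notes name HISAT2 2.0.5, StringTie 1.3.3b, featureCounts 1.5.0-p3 and the genome build rn6, on which gene coordinates are given.

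The counts as deposited were fitted with edgeR 4.0.16 (R 4.3.3): filterByExpr, TMM scaling, 1 coefficient per group over all 28 libraries, the robust quasi-likelihood test, and Benjamini-Hochberg adjustment over 17404 genes. Fold changes are psilocybin over ketanserin on the log2 scale. FPKM served only to compare levels between genes. The labels number no replicates, so library numbers only name libraries in accession order. Of 36387 records 3842 have no symbol, and they held 2.17 to 2.53% of the counts of the 8 libraries. No per-sample column was left unused (0). The labels give no batch. Whether reads were counted by strand the sources used here do not say, so overlapping genes are uncertain.

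Named genes were, by rule, the 12 in each direction with the smallest p among genes with a symbol, a mean log2 CPM of at least 0 and groups that did not overlap, the member of each list with the smallest p in each direction, Htr2a, Htr2c, Fos, Fosb, Junb, Egr1, Arc, Nr4a1 and Dusp6; members named beyond these were chosen after their values had been seen. The comparison, the lists and their members were chosen with earlier results of these data known. Alternatives were DESeq2 1.42.0, its size factors, upper quartile factors, limma 3.58.1 voom with quality weights, surrogate variables (sva 3.50.0, 2 variables), other filters, only the 2 groups compared, each library left out, a distant combination library left out, and, added after seeing the data, a gene length term. The scripts were tested on simulated data.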

Additional observations from a re-analysis of the deposited data

Results flagged for a closer look

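A library stood far from the other 3 of its group in 18 of the 256 sets of 4 values examined, where chance alone would give about 1 in 20. Psilocybin library 1 gave 6 of these. It read 5.04 CPM for Lum, a collagen-binding proteoglycan, against 3.20 to 3.40 CPM in the other 3, 16.3 CPM for the metallothionein Mt1, against 8.07 to 8.85 CPM, and 12189 CPM for Mt-co2, against 6984 to 7805 CPM. Its scores were 0.68 for respiration genes, 0.15 for astrocyte markers and -0.047 for glucocorticoid response genes, the last of these being the lowest of the group. Among the other psilocybin libraries, library 2 read 52.6 CPM for Ndufa1, a subunit of respiratory complex I, where the others read at most 0.995 CPM. Library 4 had a meningeal score of -0.76, against 0.20 to 0.39, and the only reading of Ifit1 above 0, at 0.136 CPM.

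In the ketanserin group, library 3 read 55.6 CPM for Pamr1, against 46.2 to 47.5 CPM in the other 3, and 35.5 CPM for Rpl8, against 6.39 to 10.4 CPM. The same library was lowest for Cdh24, at 32.9 CPM, and for the clock output gene Dbp, at 136 CPM, and its upper layer score was 0.42. Library 2 was highest for the early gene Junb, at 104 CPM, for Rgs2, which restrains Gq signalling, at 47.1 CPM, and for the serotonin receptor score, at 0.27. Library 1 was lowest for Mgat2, at 21.6 CPM, against 27.5 to 27.9 CPM.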

How the results depend on the processing

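The count of 0 genes at 3 mg/kg became 2 with DESeq2, 2 with limma voom and 2 with only the compared groups in the fit, and was 0 in every other alternative run; genes at an unadjusted p under 0.05 numbered 967 without a filter, 1402 with voom, 1079 with surrogate variables, 977 without the distant combination library, 347 without psilocybin library 1 and ketanserin library 3, and 412 and 400 without each of those alone. DESeq2 called 4 genes at 1 mg/kg, 2 for the change between doses and 1 for ketanserin against vehicle, and leaving out libraries gave 0 to 1 call at 1 mg/kg (C1ql2 without psilocybin library 1 of that dose). Of 1784 values of 94 named genes, 1726 kept their direction and side of the threshold; 53, of 17 genes, turned direction. With voom the log2 fold change was 0.22 for Fosb, -0.062 for Htr2a, 0.017 for Htr2c, 0.048 for Adra2c, -0.11 for Gabrd, -0.020 for Kcnn2, 0.21 for Kcne2, -0.18 for Pvalb and -0.013 for Mt-co2. Without psilocybin library 1 and ketanserin library 3 it was -0.037 for Htr2a, -0.099 for Gabrd, -0.062 for Kcnn2, 0.093 for Gpr17, 0.042 for Kcne2, 0.026 for Th, -0.20 for Pvalb, -0.064 for Mt-co2 and 0.10 for Rpl8. With surrogate variables it was 0.074 for Fos, -0.084 for Gabrd, -0.14 for Pvalb and -0.0028 for Mt-co2, and with the gene length term -0.075 for Rgs2, -0.0040 for Gabrd and -0.029 for Pvalb. Htr2a stood at -0.0022 without a filter, -0.0052 with 10 counts in 4 libraries and -0.00099 without the distant library. With 1 library left out, values ran from -0.41 to 0.16 for Fos, -0.29 to 0.28 for Fosb, -0.46 to 0.10 for Arc, -0.23 to 0.060 for Nr4a1, -0.12 to 0.16 for Htr2a, -0.19 to 0.076 for Htr2c, -0.17 to 0.29 for Drd1, -0.29 to 0.022 for Adra2c, -0.11 to 0.12 for Gabrd, -0.63 to 0.021 for Gpr17, -0.27 to 0.015 for Kcne2, -0.45 to 0.015 for Th, -0.19 to 0.38 for Pvalb and -0.76 to 0.36 for Rpl8. Of 646 list medians 620 stayed within the spread between libraries; the ribosomal median ran from 0.23 to 0.50 with 1 library left out and was 0.16 with voom. The causes were not tested. No paired analysis was possible because the labels number no replicates.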

Other observations

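Other neuronal lists had small medians of mixed direction. Interneuron markers were above 0 for 11 of 17 (median log2 fold change of psilocybin over ketanserin 0.21), upper layer markers for 3 of 12 (median -0.17), deep layer markers for 5 of 13 (median -0.03), late activity and neurotrophin genes for 8 of 22 (median -0.13) and perineuronal net genes for 5 of 17 (median -0.14). Without psilocybin library 1 and ketanserin library 3 the perineuronal list turned, with 11 of 17 above 0 and a median of 0.17. The other 4 lists then had 11 of 17 interneuron markers above 0 (median 0.11), 6 of 12 upper layer markers (median -0.04), 3 of 13 deep layer markers (median -0.05) and 5 of 22 late activity genes (median -0.09). Among upper layer markers, Cdh24, a cadherin, read 58.3, 52.3, 54.8 and 38.4 CPM with psilocybin, against 41.7, 41.2, 32.9 and 42.1 CPM with ketanserin, so library 4 was the only psilocybin library within the ketanserin range. Cbln2, a secreted organiser of synapses, had a log2 fold change of -0.30 (edgeR, unadjusted p 0.0122). Its relative C1ql2 stood at 0.52 at 3 mg/kg and at 1.41 at 1 mg/kg. Astrocyte markers had a median of 0.02, also with the 6 libraries, and oligodendrocyte precursor markers one of -0.09, which turned to 0.07 with the 6.

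Clock and stress hormone genes were mixed. Of 18 circadian genes 6 were above 0, with a median of -0.03, and with the 6 libraries 13 were, with a median of 0.06. Dbp, a clock output factor, read 274, 221, 195 and 188 CPM with psilocybin, against 174, 179, 136 and 173 CPM with ketanserin, with no overlap (log2 fold change 0.40, edgeR, unadjusted p 0.0285). Arntl, a core activator of the clock, had a log2 fold change of -0.22. Times of day of tissue collection are not given in the sources used here. Of 17 glucocorticoid response genes 8 were above 0, with a median of -0.09, and with the 6 libraries 9 were, with a median of 0.00. Mt1 read 16.3, 8.07, 8.54 and 8.85 CPM with psilocybin, against 6.98, 5.11, 4.28 and 5.67 CPM with ketanserin, also with no overlap, whereas Tsc22d3, a glucocorticoid-induced leucine zipper, had a log2 fold change of -0.25. Among 22 heat shock genes 9 were above 0, with a median of -0.01, and with the 6 libraries 4 were, with a median of -0.07.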
